A study of Homo sapiens with 6 samples.

Results

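Intestinal epithelium is specified and maintained by a small set of transcription factors, and 8 of them were followed here across 2 human esophageal adenocarcinoma cell lines: CDX1, CDX2, ISX, HNF4A, HNF4G, NR5A2, ATOH1 and SPDEF. The genes were taken by symbol from the count tables, where each had a single row, and they are 8 of 37493 gene identifiers. RNA sequencing was available for OE33 cells transfected with siRNA against PPARG (OE33 siPPARG), OE33 cells transfected with a non-silencing siRNA (OE33 control), Eso26 siPPARG and Eso26 control. PPARG is a nuclear receptor of lipid genes that the study places in a loop with master regulator factors and fatty acid synthesis. Both are established tumour cell lines, so each group is 1 line grown in culture. OE33 was grown in DMEM and Eso26 in RPMI-1640, each with fetal bovine serum, so cell line and medium cannot be told apart. Each condition is 1 column of counts, taken as 1 library although the design text speaks of triplicates, so differences between single libraries carry counting intervals only and no replicate check.

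As background, CDX2 and CDX1 are caudal-type homeobox factors that set intestinal identity in the endoderm, and ISX is an intestine-specific homeobox factor that represses vitamin A uptake genes in the mouse gut. HNF4A and HNF4G are paired nuclear receptors that drive enterocyte and lipid transport genes, with HNF4A also central in liver. NR5A2 (liver receptor homolog) acts in bile acid metabolism and in crypt renewal. ATOH1 commits crypt progenitors to the secretory lineage under Notch control, and SPDEF acts after it in goblet and Paneth cell maturation. Normal esophageal squamous epithelium lacks this programme, while intestinal metaplasia of the esophagus, the lesion that precedes adenocarcinoma, switches it on.

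Libraries held between 16866996 and 23019840 counts. Values are CPM, counts scaled to a common library size with TMM factors computed over the 4 libraries, and intervals are exact 95% intervals for counting error. PPARG, the siRNA target, had 17.8 CPM in OE33 siPPARG against 129.99 CPM in the OE33 control, and 9.41 CPM in Eso26 siPPARG against 11.2 CPM in the Eso26 control; the Eso26 ratio of 0.843 (0.698 to 1.02) includes no change, so Eso26 directions below are those of the library labelled siPPARG. All 9 epithelial markers listed (EPCAM, CDH1, keratins and claudins) exceeded 5 CPM in both OE33 libraries and 8 did in both Eso26 libraries. Summed CPM ran from 5196.95 to 11169.6 for that list, from 3.86 to 8.20 for 7 fibroblast markers and from 8.92 to 26.8 for 7 immune markers. PTPRC, CD3E and CD68 had at most 1 count in any library, while CD79A (68 and 51 counts) and CD14 (94 and 83) were present in OE33 siPPARG and control, and LYZ (527 and 571) in Eso26 siPPARG and control; their part in the results was not tested.

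The promoter windows below belong to HNF4A and ISX, which were near 0 in OE33 and abundant in Eso26, and to CDX2, which OE33 retained at a lower level. They are RefSeq windows on GRCh38.p14, 300 bases each from 250 before to 50 after a transcription start, and the coordinates are not those of the hg19 build named for the study's files. Capitals mark TTTAT, the core letters bound by CDX factors, searched on both strands; no matches overlapped. HNF4A has a pair of separate starts in the table, and both windows are shown.
HNF4A, upstream start (chr20:44355449-44355748, plus strand): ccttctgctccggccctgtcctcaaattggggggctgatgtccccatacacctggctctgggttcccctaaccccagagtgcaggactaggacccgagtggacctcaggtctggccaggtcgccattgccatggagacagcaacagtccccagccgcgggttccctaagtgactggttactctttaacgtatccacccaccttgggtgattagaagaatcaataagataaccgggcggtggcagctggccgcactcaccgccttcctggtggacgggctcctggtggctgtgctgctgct
HNF4A, downstream start (chr20:44400989-44401288, plus strand): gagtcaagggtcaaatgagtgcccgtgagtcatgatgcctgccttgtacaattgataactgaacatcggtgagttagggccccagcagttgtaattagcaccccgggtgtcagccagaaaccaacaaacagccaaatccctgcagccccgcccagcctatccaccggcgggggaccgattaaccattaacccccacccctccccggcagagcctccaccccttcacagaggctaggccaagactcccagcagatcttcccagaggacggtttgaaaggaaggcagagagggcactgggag
CDX2 (chr13:27969266-27969565, minus strand): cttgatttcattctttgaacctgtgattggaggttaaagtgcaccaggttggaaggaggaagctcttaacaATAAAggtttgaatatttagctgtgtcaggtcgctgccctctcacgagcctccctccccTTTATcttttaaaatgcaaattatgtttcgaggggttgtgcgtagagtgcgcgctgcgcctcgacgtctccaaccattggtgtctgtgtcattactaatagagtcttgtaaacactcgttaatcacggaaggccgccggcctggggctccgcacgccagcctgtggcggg
ISX (chr22:35065908-35066207, plus strand): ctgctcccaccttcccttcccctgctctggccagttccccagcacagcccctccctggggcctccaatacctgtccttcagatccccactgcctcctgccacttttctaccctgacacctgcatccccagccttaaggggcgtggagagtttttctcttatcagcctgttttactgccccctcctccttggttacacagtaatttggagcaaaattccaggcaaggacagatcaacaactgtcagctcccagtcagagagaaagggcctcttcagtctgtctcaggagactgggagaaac
The CDX2 window held TTTAT at -179 and -120 from the start, and the NR5A2 windows, not printed, held it at -201 and -31 and at -195. No match to TTTAT was present in either HNF4A window or in the ISX window. Of 35116 RefSeq windows of this length 34.9% held TTTAT, which is common by its shortness. The longer letters CAAAGTCCA (HNF4, 0.384% of windows), CAAGGTCA (NR5A2, 1.28%), and the spaced direct repeat of PPAR with RXR (0.0228%), matched none of the 8 windows searched. These windows covered 6 of the 8 genes, and CDX1 and HNF4G were not searched. A match is a run of letters, not a measured binding site.

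Between the control libraries CDX1, CDX2, ISX, HNF4A and HNF4G differed more than between siPPARG and control in each line where they had more than 3 counts, while NR5A2 differed more between siPPARG and control in OE33 (2.52-fold) than between the controls (1.80-fold). In the control libraries, HNF4A, CDX1 and ISX were near the limit of detection in OE33 and abundant in Eso26, CDX2 and HNF4G were lower in OE33 but clearly present, and NR5A2 was closest between the lines. Of the 6 factors that reached 5 CPM in either control, 5 were past 2-fold, all lower in OE33, where 16.3% of 11211 genes tested were past 2-fold lower and 21.5% past 2-fold higher. CDX1, ISX and HNF4A passed the expression filter through Eso26 alone and so had to differ, while CDX2, HNF4G and NR5A2 reached 5 CPM in both controls. The test the design allows takes all 4 libraries, with treatment as covariate, and asks for the line difference by edgeR's quasi-likelihood test; it has 1 residual degree of freedom, and the 2 libraries of a line are not independent samples of different lines. It called 34.1% of 11382 genes lower in OE33 and 37.2% higher, with the 7 members tested among the lower genes. Of these members, CDX1, ISX, HNF4A and SPDEF passed its filter through Eso26 alone.

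**Figure D1:**
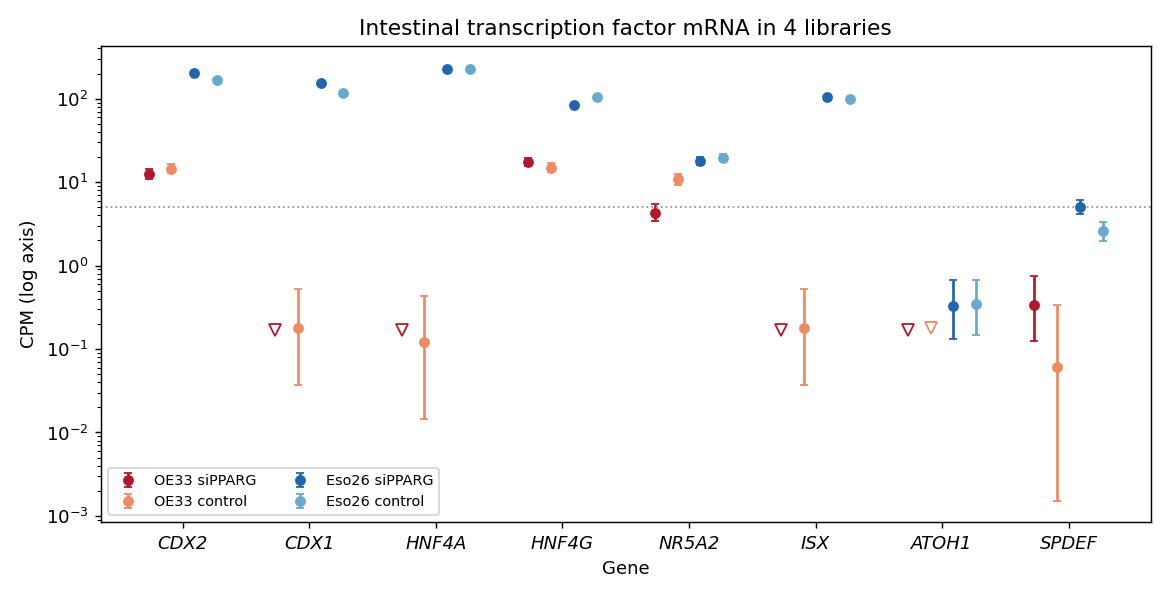
CPM of each factor on a log axis, with OE33 siPPARG, OE33 control, Eso26 siPPARG and Eso26 control from left to right; bars are 95% counting intervals, open triangles mark a count of 0 drawn at the level of 3 counts, and the dotted line is 5 CPM. HNF4A, CDX1 and ISX lie below 0.2 CPM in OE33 and above 98 CPM in Eso26, and CDX2 and HNF4G lie between 12 and 18 CPM in OE33.

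CDX2, the factor that can by itself turn on intestinal genes in gastric epithelium of mice, was transcribed in both lines. It had 222 counts (12.6 CPM) in OE33 siPPARG, 240 counts (14.5 CPM) in the OE33 control, 4323 counts (202 CPM) in Eso26 siPPARG and 3911 counts (169 CPM) in the Eso26 control. Both OE33 values lay below both Eso26 values, but the share of all genes with this order was not counted. Between the controls alone, 5507 of 11211 genes tested were lower in OE33 by any amount. The 2 libraries of a line are not replicates, and edgeR, a different measure, called 34.1% of 11382 genes lower in OE33. In the controls CDX2 was 11.6-fold lower in OE33 than in Eso26 (interval 10.2 to 13.3), and in the siPPARG libraries 16.1-fold lower (14.0 to 18.5). The line difference had an adjusted p of 3.29e-05 by edgeR.

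CDX1, its paralog, was at 0 counts in OE33 siPPARG and 3 counts (0.181 CPM) in the OE33 control, against 3292 counts (154 CPM) in Eso26 siPPARG and 2727 counts (118 CPM) in the Eso26 control. OE33 therefore held CDX2 RNA with almost no CDX1 RNA, and Eso26 held both. The control ratio, 649.6-fold lower in OE33, rests on 3 counts and has a counting interval of 222 to 3152; between the siPPARG libraries CDX1 was at least 905-fold lower in OE33, taking the 0 as 3 counts. The adjusted p of the line difference was 2.32e-05 by edgeR, in a fit that called 34.1% of 11382 genes lower in OE33. CDX1 passed its filter through Eso26 alone, which favoured a lower value in OE33.

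ISX followed CDX1. It had 0 counts in OE33 siPPARG and 3 (0.181 CPM) in the OE33 control, against 2233 counts (105 CPM) in Eso26 siPPARG and 2277 (98.1 CPM) in the Eso26 control. The control ratio was 542-fold lower in OE33 (185 to 2632). Taking the 0 as 3 counts, the siPPARG libraries gave at least 614-fold lower. The adjusted p of the line difference was 2.42e-05 by edgeR. Over the 4 libraries the root mean square distance between the centred log2 CPM of CDX1 and ISX was 0.23, and 3 of 11371 other genes lay closer to either of them. Both genes had 0 and 3 counts in the OE33 libraries and passed the filter through Eso26 alone. Their distance is therefore largely set by the counting floor in OE33 and is no separate evidence of a shared pattern.

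HNF4A was, with CDX1 and ISX, a factor near 0 in OE33. It had 0 counts in OE33 siPPARG and 2 counts (0.121 CPM) in the OE33 control, against 4900 counts (229 CPM) in Eso26 siPPARG and 5271 counts (227 CPM) in the Eso26 control. Taking the 0 as 3 counts, the siPPARG libraries gave HNF4A at least 1348-fold lower in OE33. The 2 counts of the OE33 control make the control ratio imprecise, at 1884-fold lower in OE33 (521 to 15557). The interval overlaps those of CDX1 and ISX, so the 3 ratios cannot be ordered. The adjusted p was 1.41e-05 by edgeR, but HNF4A passed the filter through Eso26 alone, which favoured a lower value in OE33. In that fit 34.1% of 11382 genes were called lower in OE33. The antisense genes HNF4A-AS1 and ISX-AS1 had 0 counts in all 4 libraries.

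HNF4G, the paralog that shares enterocyte targets with HNF4A in the mouse intestine, did not follow it to absence. It had 311 counts (17.7 CPM) in OE33 siPPARG, 247 (14.9 CPM) in the OE33 control, 1814 (85.0 CPM) in Eso26 siPPARG and 2406 (104 CPM) in the Eso26 control. Its control ratio was 6.96-fold lower in OE33 (6.10 to 7.97), and 4.81-fold lower between the siPPARG libraries (4.27 to 5.45), with an adjusted p of 0.000125 by edgeR. In OE33, HNF4G and CDX2 thus had 222 or more counts where their paralogs HNF4A and CDX1 had at most 3.

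NR5A2 was the least line-dependent of the factors past 5 CPM. It had 76 counts (4.31 CPM) in OE33 siPPARG, 180 (10.9 CPM) in the OE33 control, 383 (17.9 CPM) in Eso26 siPPARG and 454 (19.6 CPM) in the Eso26 control. The controls differed 1.80-fold, lower in OE33 (1.51 to 2.15), and the siPPARG libraries 4.16-fold (3.24 to 5.39). The line difference had an adjusted p of 0.0088 by edgeR.

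The 2 secretory factors were scarce throughout. ATOH1 had 0 counts in both OE33 libraries, with upper interval limits of 0.209 CPM in siPPARG and 0.222 CPM in control. It had 7 counts (0.328 CPM) in Eso26 siPPARG against 8 (0.345 CPM) in the Eso26 control. SPDEF had 6 counts (0.341 CPM) in OE33 siPPARG, 1 count (0.0603 CPM) in the OE33 control, 107 counts (5.01 CPM) in Eso26 siPPARG and 60 counts (2.59 CPM) in the Eso26 control. SPDEF was 42.9-fold lower in the OE33 control than in the Eso26 control, with an interval of 7.41 to 1722 set by the single OE33 count. It was under the filter between the controls and entered the line fit through the Eso26 siPPARG library alone. That filter favoured a lower value in OE33, and edgeR gave SPDEF an adjusted p of 0.000646. ATOH1 was under the filter of every comparison and was not tested.

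**Figure D2:**
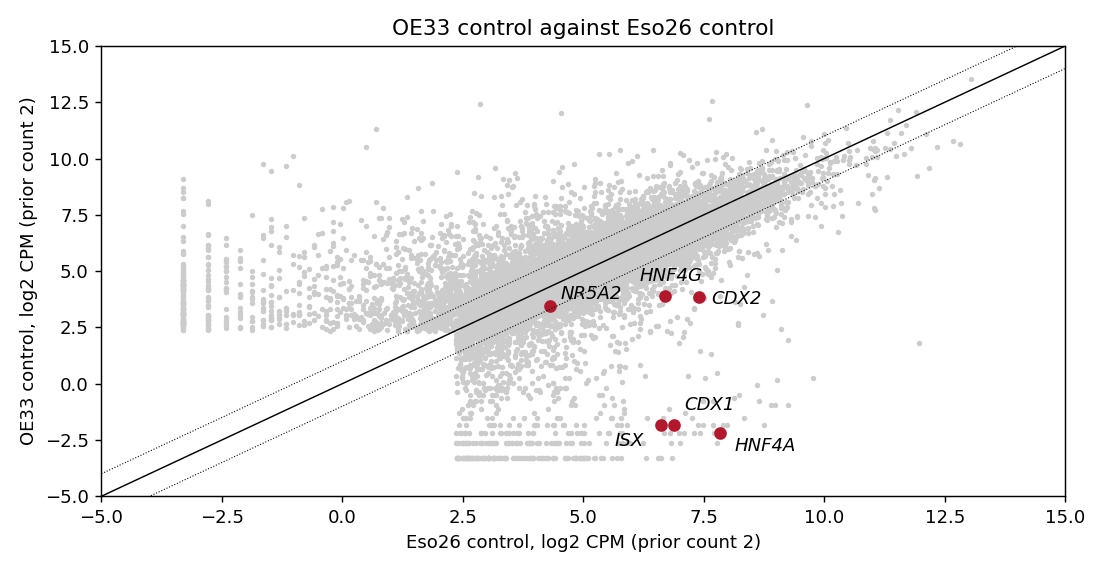
Each point is a gene that reached 5 CPM in either control library, with log2 CPM in the Eso26 control on the x axis and in the OE33 control on the y axis; the solid line is equality and the dotted lines are 2-fold. CDX1, ISX and HNF4A lie at the lower edge, where the OE33 control had 2 or 3 counts, CDX2 and HNF4G lie below the lower 2-fold line and NR5A2 lies just inside it.

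In OE33, where PPARG RNA was lower after siPPARG, NR5A2 was the single factor past 2-fold. Its 76 counts in siPPARG against 180 in control gave a ratio of 0.397 (0.300 to 0.522). Of 10550 genes tested in OE33, 0.408% were past 2-fold lower and 1.08% past 2-fold higher. Of the OE33 libraries, NR5A2 reached 5 CPM in the control only, so it passed the filter where it was high. CDX2, with a ratio of 0.871 (0.722 to 1.05), and HNF4G, with 1.19 (0.9997 to 1.41), were within 1.5-fold, and at this depth neither interval excluded equality. The other 5 factors were under 5 CPM in both OE33 libraries; HNF4A, CDX1, ISX and ATOH1 were at or under 3 counts and give no fold, and SPDEF had 6 counts against 1.

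In Eso26, 7 factors passed the filter and 0 were past 2-fold, against 0.0576% of 10421 genes past 2-fold higher and 0.144% lower (6 and 15 genes, or 8 and 10 without a scaling factor). SPDEF came closest: 107 counts in siPPARG against 60 in control, a ratio of 1.94 (1.40 to 2.71) and a log2 fold of 0.93. SPDEF passed the filter through the Eso26 siPPARG library alone, at 5.01 CPM. CDX1 was 1.31-fold higher in Eso26 siPPARG (1.25 to 1.38) and CDX2 1.20-fold higher (1.15 to 1.25). HNF4G stood at 0.819 of its control level (0.771 to 0.871), while HNF4A stood at 1.01 (0.972 to 1.05), ISX at 1.07 (1.005 to 1.13), NR5A2 at 0.917 (0.798 to 1.05) and ATOH1 at 0.951 (0.294 to 3.001). In this pair of libraries 9.81% of genes had a larger absolute log2 fold than CDX1, 20.7% a larger one than HNF4G and 24.4% a larger one than CDX2. The intervals for CDX1, CDX2, HNF4G, ISX and SPDEF excluded equality, but they hold no spread between cultures.

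**Figure D3:**
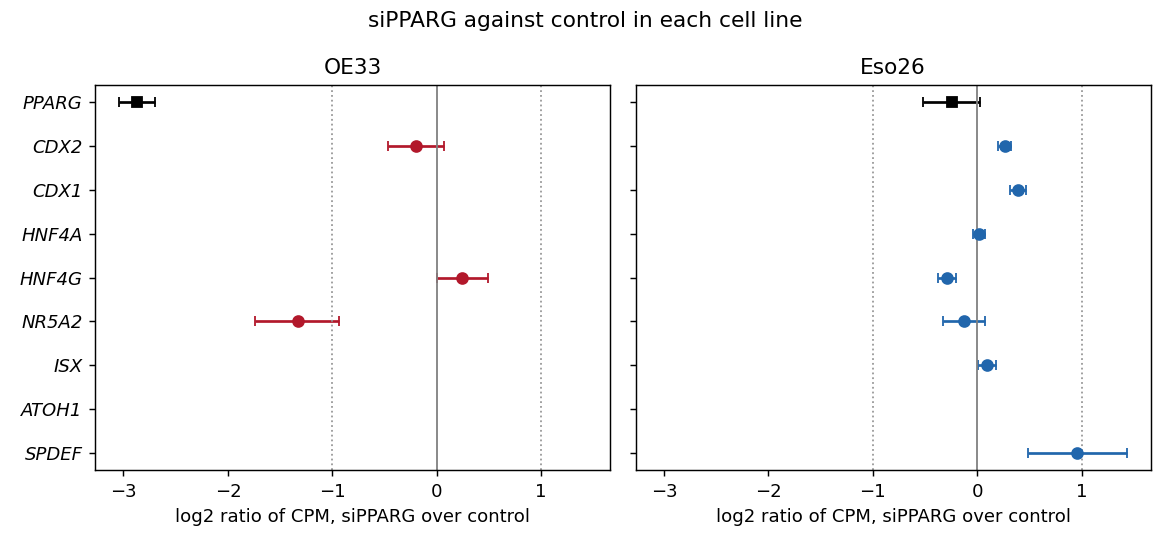
Log2 ratio of CPM in siPPARG over control with 95% counting intervals, for OE33 on the left and Eso26 on the right; PPARG is the black square, factors under 5 CPM in both libraries are left blank, and dotted lines mark 2-fold. NR5A2 in OE33 (ratio 0.397) is the factor beyond the dotted line, and SPDEF in Eso26 (ratio 1.94) lies next to it.

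An effect common to both lines was asked of the 4 libraries with cell line as covariate. By edgeR's quasi-likelihood test 0 of 11382 genes were called (0% in either direction), with 523 at an unadjusted p under 0.05; DESeq2 called 13 genes, none of them a member, and limma 0. NR5A2 and SPDEF each had an adjusted p of 0.942; the other 5 members tested had adjusted p-values from 0.945 to 0.996. The smallest adjusted p over all genes was 0.942, so this test, with 1 residual degree of freedom, separated no gene. Whether the siPPARG difference of a factor itself differed between OE33 and Eso26 was not tested, since each line has 1 library per treatment.

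The genes these factors are known to drive were next read as lists, chosen with earlier results of these data known; each list's calls between the lines stand against 21.5% of all genes past 2-fold higher and 16.3% lower between the controls, and 37.2% higher and 34.1% lower by edgeR. Enterocyte genes bound or activated by CDX and HNF4 factors were almost absent from OE33. Of 26 listed, 11 reached 5 CPM in either control, all 11 were lower in OE33 and 10 were past 2-fold. Their median log2 fold was -7.97 (-7.86 with genes at 0 counts set to their bound), beside 0.029 over all genes tested. In the line fit edgeR called 13 of the 13 tested genes lower in OE33. Except for DPP4, the genes of both counts passed the filter through Eso26 alone. Those tested between the controls therefore had to be lower in OE33, which also set the sign of the median. CDH17, the liver-intestine cadherin and a direct CDX2 target, had 0.284 CPM in OE33 siPPARG, 0.422 CPM in the OE33 control, 603 CPM in Eso26 siPPARG and 607 CPM in the Eso26 control. VIL1 (villin) had 1.36, 1.09, 963 and 875 CPM in the same order, and HEPH (hephaestin, which acts in iron export) 0.114, 0.121, 175 and 171 CPM. DPP4, a brush border peptidase also made elsewhere, was the exception, with 116 CPM in OE33 siPPARG, 102 in the OE33 control, 173 in Eso26 siPPARG and 185 in the Eso26 control.

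Several of the listed genes, among them lipoprotein and digestive enzyme genes of mature enterocytes, were at 0 or low in Eso26, where the CDX and HNF4 factors were abundant. APOA4, APOB, APOC3, TTR and LCT had 0 counts in all 4 libraries, and FABP1, SI, ALPI and MTTP were detected in Eso26 at 5 to 20 counts, under 1 CPM. Within Eso26, siPPARG against control left all 13 enterocyte genes tested inside 2-fold, 8 higher and 5 lower, with a median log2 fold of 0.054 beside -0.0073 over all genes; CDHR1 (log2 fold 0.85), a cadherin best known from photoreceptors, CDHR2 (0.68), a protocadherin of the brush border, and LGALS4 (0.65), a lectin of the apical membrane, had the largest differences. In OE33, DPP4 alone passed the filter, with a log2 fold of 0.18.

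**Figure D4:**
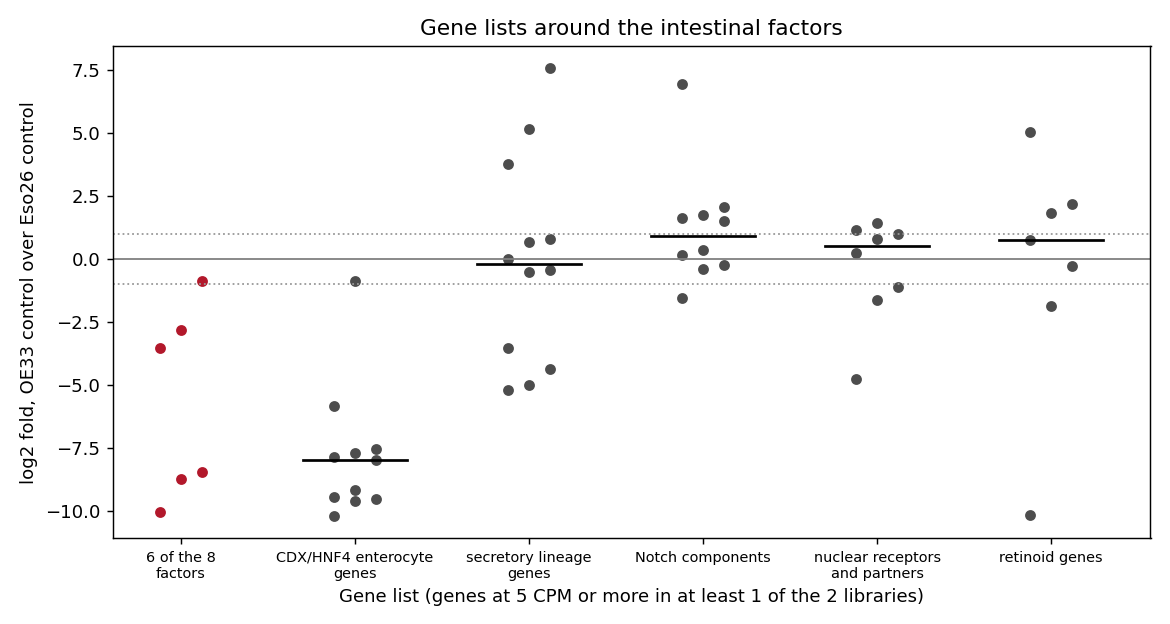
Log2 fold of OE33 control over Eso26 control for the factors and for each gene list around them, among genes that reached 5 CPM in either library; black bars are list medians, dotted lines mark 2-fold. The enterocyte genes lie between -10.2 and -0.86, while the secretory, Notch, nuclear receptor and retinoid lists spread on both sides of 0. Of the enterocyte genes, only DPP4 reached 5 CPM in the OE33 control.

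Secretory lineage genes lay on both sides, with edgeR calls close to the shares over all genes. Of 23 listed, 12 reached 5 CPM in either control, 3 past 2-fold higher in OE33 and 4 past 2-fold lower (median log2 fold -0.20); edgeR called 4 higher and 5 lower in the line fit, where 37.2% of all genes were called higher and 34.1% lower. FCGBP, a goblet cell mucus protein gene, had 34.7 CPM in OE33 siPPARG, 43.6 in the OE33 control, 0.515 in Eso26 siPPARG and 0.129 in the Eso26 control, and GFI1, a repressor that acts after ATOH1, had 6.81, 6.57, 0.0468 and 0.0862 CPM. AGR3, a disulfide isomerase gene, ran the other way with 0 and 0.0603 CPM in OE33 siPPARG and control against 7.35 and 5.69 CPM in Eso26 siPPARG and control. MUC2, the intestinal mucin, had 8 counts in OE33 siPPARG, 6 in the OE33 control and 0 in both Eso26 libraries, and TFF3 had 0 in both OE33 libraries and 54 and 28 in Eso26 siPPARG and control. After siPPARG no secretory gene tested was past 2-fold in either line: the 8 tested in OE33 lay between log2 folds of -0.45 (CREB3L4) and 0.43 (AGR2), with DLL4 at -0.41, and the 10 tested in Eso26 between -0.35 (KLF4) and 0.62 (DLL4), with AGR3 at 0.37; their medians were -0.0029 and 0.12.

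Notch receptors, ligands and effectors, which restrain ATOH1, were listed with ID1, an inhibitor that is not itself part of the pathway; 10 of the 11 genes reached 5 CPM in the OE33 control and 8 in the Eso26 control, and HEY1 had at most 11 counts in any library. Of 11 listed, 10 were tested between the controls, 5 past 2-fold higher in OE33 and 1 lower (median log2 fold 0.94); edgeR called 6 higher and 1 lower, beside 37.2% and 34.1% of all genes. ID1, a helix-loop-helix protein, had 188 CPM in OE33 siPPARG, 312 in the OE33 control, 1.499 in Eso26 siPPARG and 2.41 in the Eso26 control. HES4 and NOTCH3 had log2 folds of 2.08 and 1.77 between the controls. HES1, the Notch effector that represses ATOH1, had 35.8 CPM in OE33 siPPARG and 57.5 in the OE33 control (ratio 0.623), against 20.6 and 18.6 CPM in Eso26 siPPARG and control. No Notch gene tested was past 2-fold after siPPARG in either line; the largest log2 folds were -0.72 for ID1, -0.68 for HES1 and 0.43 for HES4 in OE33 (median 0.10), and 0.53 for HES4, -0.53 for JAG1 and 0.36 for JAG2 in Eso26 (median 0.0042).

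Of the nuclear receptors of liver and gut and their partners, 6 of 12 reached 5 CPM in the OE33 control and 8 in the Eso26 control, and NR1H4 had 0 counts in all 4 libraries. Of 12 listed, 8 were tested between the controls, 3 past 2-fold higher in OE33 and 3 lower (median log2 fold 0.52), and edgeR called 4 higher and 3 lower in the line fit, close to the 37.2% and 34.1% over all genes. PROX1, a repressor of NR5A2 and HNF4A activity, had 0.454 CPM in OE33 siPPARG, 0.724 in the OE33 control, 17.2 in Eso26 siPPARG and 21.9 in the Eso26 control, with a log2 fold of -4.74 between the controls. PPARGC1A, a coactivator of HNF4A, was lower in OE33 with a log2 fold of -1.61, and NR2F6, an orphan receptor, was higher with 1.43. NR0B2, the small partner that NR5A2 induces and that represses it in liver, stayed under 3 CPM in all 4 libraries and was not tested. It had 1 and 0 counts in OE33 siPPARG and control, against 62 and 44 in Eso26 siPPARG and control. After siPPARG, 0 of the 6 tested in OE33 and 0 of the 8 in Eso26 were past 2-fold. PPARA, the receptor related to PPARG, came closest, with 90.6 CPM in Eso26 siPPARG and 46.7 in the Eso26 control (ratio 1.94). PROX1 and RXRA had log2 folds of -0.35 and 0.23 in Eso26, and NR2F2, PPARA and RXRA had 0.37, -0.13 and -0.078 in OE33. The medians were -0.017 in OE33 and 0.15 in Eso26.

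ISX represses the carotenoid cleavage enzyme gene BCO1 and the scavenger receptor gene SCARB1 in mouse intestine, so these were read beside it. SCARB1 had 80.8 CPM in OE33 siPPARG, 81.6 in the OE33 control, 97.0 in Eso26 siPPARG and 97.9 in the Eso26 control, with an adjusted p of 0.0783 for the line difference by edgeR. BCO1 had 2.16, 1.51, 6.93 and 5.69 CPM in the same order. It was 3.77-fold lower in the OE33 control than in the Eso26 control (2.45 to 6.04). The line difference of BCO1 had an adjusted p of 0.00174 by edgeR, and BCO1 passed the filter through Eso26 alone. Of 14 retinoid genes, 7 were tested between the controls, 3 past 2-fold higher in OE33 and 2 lower (median log2 fold 0.75), and edgeR called 4 higher and 2 lower, beside 37.2% and 34.1% of all genes. ALDH1A1, which makes retinoic acid, had 2.72 CPM in OE33 siPPARG, 3.44 in the OE33 control, 3882 in Eso26 siPPARG and 4005 in the Eso26 control, while STRA6, the retinol uptake receptor, and RARG were higher in OE33 with log2 folds of 5.06 and 2.18. No retinoid gene tested was past 2-fold after siPPARG: the 5 in OE33 lay between -0.086 (RARG) and 0.099 (STRA6), with DHRS3 at 0.091 and a median of -0.015, and the 6 in Eso26 between -0.13 and 0.28 (BCO1), with DHRS3 at 0.25, RARG at 0.20 and a median of 0.093. The other 9 listed were under 5 CPM in both OE33 libraries. Among these, RARB had 54 counts in OE33 siPPARG and 21 in control, a ratio of 2.42 (1.44 to 4.22). ALDH1A1 had a ratio of 0.793 (0.528 to 1.18).

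The genes most like each factor were ranked by root mean square distance of centred log2 CPM over the 4 libraries, among 11371 genes that reached 5 CPM in any library, chromosome Y left out. Since 4 libraries of 2 lines give few distinct shapes, the distance mainly records the line difference. MALRD1 (0.066), BMP7 (0.25) and CDH17 (0.26) were closest to HNF4A; DPEP1 (0.10), GUCY2C (0.18) and TSPOAP1 (0.22) to CDX1; and TSPOAP1 (0.16), DPEP1 (0.19) and HGD (0.23) to ISX. CDX2 was closest to ATP2A3 (0.054), FOXA3 (0.082) and GCNT1 (0.084), and HNF4G to MT-ATP8 (0.047), TNRC6C (0.053) and PUDP (0.059); MT-ATP8 overlaps MT-ATP6, so its counts are uncertain. NR5A2 was closest to TNIK (0.11), RADX (0.12) and FAM72D (0.13), the last a member of a near-identical family with uncertain counts, and SPDEF to NEURL1B (0.26), MIR200CHG (0.26) and MPP1 (0.28). CDX1, ISX and HNF4A lay at most 0.68 from each other, while each lay at least 2.77 from CDX2, HNF4G, NR5A2 and SPDEF. These factors had at most 3 counts in either OE33 library and passed the filter through Eso26 alone. Their distances are therefore largely set by the counting floor and are no separate evidence of a shared pattern.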

How the data were processed

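RNA and PPARG ChIP samples were grouped by title. The authors deposited raw counts per gene, per the file headers and values, in 1 table per cell line of 37533 rows; 40 rows that repeat an identifier were summed with their partner, leaving 37493, of which 37402 matched the symbol table. Per the submitters' processing notes, Trim Galore, STAR, Bowtie, Picard, MACS2 and hg19 were used, with no roles given; the sources used here do not give the counter, its strand setting or its treatment of multi-mapping reads, which makes paralogs and antisense genes uncertain. The 2 peak lists were not used here, since no hg19 annotation was used to place peaks at genes.

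TMM factors over the 4 libraries (edgeR 4.0.16, R 4.3.3) scaled counts to CPM, because lines are compared. Within a comparison, genes that reached 5 CPM in either library were tested and a log2 fold used a prior count of 2; 2-fold is a size, not a test. Ratios are of CPM, with exact conditional binomial 95% intervals, and levels have exact Poisson ones (SciPy 1.17.1); a 0 was set to 3 counts per library for bounds. They cover counting error only. The 4-library fits used edgeR's quasi-likelihood test with Benjamini-Hochberg adjustment over all 11382 genes; DESeq2 1.42.0 and limma 3.58.1 were alternatives. The fits were tested on simulated data. Members and lists (enterocyte, secretory, Notch, nuclear receptor and partner, retinoid, and epithelial, squamous, gastric, liver, fibroblast and immune markers) were chosen with earlier results of these data known; 2 genes of these lists and a promoter motif are not reported here. Genes named are all members, PPARG, in each list the up to 3 largest absolute log2 folds per comparison, and the 3 genes closest to each member; the other list genes named (among them HES1, MUC2, TFF3, NR0B2 and SCARB1) were chosen after their values were seen.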

Additional observations from a re-analysis of the deposited data

How the results depend on the processing

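The 7 members tested were lower in OE33 in the line fit under edgeR, DESeq2, limma, DESeq2 size factors, a 1 CPM filter and cell line as the only term, and 8 were without a filter. Over all genes, 3881 (34.1%) were called lower under edgeR, 3736 with DESeq2 and 5000 without a filter. CDX1, ISX, HNF4A and SPDEF passed the 5 CPM and 1 CPM filters through Eso26 alone, which favoured a lower value in OE33. The adjusted p of NR5A2 in the line fit ran from 6.3e-06 to 0.0141 over these settings. Of the log2 folds of single members, 3 moved beyond their counting interval, all with the siPPARG libraries in place of the controls: CDX2 at -3.995, HNF4G at -2.26 and NR5A2 at -2.03, the last then past 2-fold. In OE33, 216 genes were past 2-fold higher and 81 lower with a 1 CPM minimum; with none these became 556 and 581, and a 1.5-fold limit gave 356 and 244. Without a filter 1 member was higher and 4 lower, 3 of these at or under 3 counts. In Eso26 the counts were 64 and 36 with a 1 CPM minimum, 1 and 8 with 10 CPM, 713 and 334 with none, and 130 and 119 at 1.5-fold, where 1 member, SPDEF, was higher. Between the controls they numbered 3846 higher and 3575 lower without a filter, and 3083 lower at 1.5-fold. For the common siPPARG effect DESeq2 called 2 higher and 11 lower, and edgeR without a filter 36 and 28, none a member. The sign of that effect turned for CDX1 (adjusted p 0.99996) and ISX (0.99996) with DESeq2 and for ISX (0.998) with limma; OE33 holds 0 and 3 counts of each, and the cause was not tested. No paired analysis was possible because each group has 1 library and the labels give no replicate numbers; the 4-library fit of siPPARG against control already holds cell line as a term. Without any 1 library that fit has no residual degree of freedom. A count of 0 in OE33 had an upper interval limit of 0.209 CPM in siPPARG and 0.222 CPM in control. At this depth a level under these limits cannot be told from 0.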

Other observations

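Some markers of other epithelia also differed between the lines. CLDN18, a gastric claudin gene, had 309 counts in OE33 siPPARG and 390 in the OE33 control, against 0 in both Eso26 libraries, and PDX1, a factor of duodenum and antrum, had 64 and 56 counts against 219 and 183 in Eso26 siPPARG and control. MUC6, GKN1, GKN2 and PGC had at most 2 counts in any library, and MUC5AC had 19 and 33 counts in OE33 siPPARG and control and 0 in Eso26. KRT7, a keratin of simple epithelia, had 1404 CPM in OE33 siPPARG and 1466 in the OE33 control, against 1.31 and 1.29 CPM in Eso26 siPPARG and control. Of 8 squamous genes listed, 3 reached 5 CPM in either control: SPRR3, KRT13 and SOX2. SPRR3 had 551 and 335 counts and KRT13 32 and 165 counts in OE33 siPPARG and control, both with 0 in Eso26. SOX2 had 5 and 2 counts in OE33 siPPARG and control against 140 and 198 in Eso26 siPPARG and control. TP63, under that level, had 1 count in each OE33 library and 0 in Eso26. Liver markers were low in all 4 libraries, with a summed level between 1.39 and 3.51 CPM over 7 genes, and ALB had at most 1 count.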
